A study of Mus musculus with 840 samples.

Results

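Single cells sorted from the intermediate gate of the mouse mammary gland were compared between 2 Cre lines, SMACre and K5Cre, within 1 sequencing batch, so that the lines were read together. The cells came from 3 plates: 1 SMACre plate, which held cells of 1 mouse, and 2 K5Cre plates (K5Cre 1 and K5Cre 2), each of which pooled cells of 2 mice. With 1 SMACre plate of 1 mouse, Cre line, mouse and plate cannot be told apart. All of these mice carried the Rosa-N1ICD-IRES-nGFP allele (genotypes SMA_NIC and K5_NIC), in which Cre turns on the active intracellular domain of Notch1 together with a nuclear GFP, and all received tamoxifen at postnatal day 21. SMACre and K5Cre are inducible CreERT2 drivers: the first is under the promoter of smooth muscle actin, the second under that of keratin 5, and both promoters are used by basal cells. Recombination was mosaic, so GFP marks the cells that made the transgene, and the GFP- cells used beside them came from the same mice. The chase was 3 weeks for SMACre and K5Cre 1. For K5Cre 2 the description of the wells gives 3 weeks and the sample name gives 6. The authors list both K5Cre plates at 3 weeks, so only the sample name disagrees. The intermediate gate lay between the basal and the luminal populations on EpCAM and CD49f in flow cytometry.

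Of the 192 intermediate GFP+ wells of this batch, 184 were kept: 60 of 60 for SMACre, 63 of 66 for K5Cre 1 and 61 of 66 for K5Cre 2. A cell was kept with over 100000 counts on mouse genes, over 1400 genes with a read, under 10% mitochondrial reads and at least 2 reads of Epcam, the gene of the epithelial surface protein used in the sort. The whole series has 840 cells before these filters. The kept cells held 86490264 counts on the SMACre plate, 88632797 on K5Cre 1 and 97764884 on K5Cre 2, and single cells ranged from 131568 to 3363298 counts. The medians per cell were 1456614, 1355982 and 1612297 counts and 7523, 7379 and 7761 genes, in the same order of plates. The median share of mitochondrial reads was 1.599% on SMACre, 1.29% on K5Cre 1 and 2.71% on K5Cre 2.

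The mammary epithelium is a bilayer. Basal cells make keratins 5 and 14, the transcription factor p63 and, when contractile, smooth muscle proteins, and luminal cells make keratins 8 and 18. Notch1 is a receptor whose cleaved intracellular part enters the nucleus and switches on targets such as the Hes and Hey repressors, and its activity drives mammary cells toward the luminal fate. Cells in transit between the fates can carry keratins of both layers at the same time.

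Levels are given as CPM, the reads of a gene summed over the kept cells of a plate and scaled to a total of 1000000 reads on all genes. Such a sum cannot tell fewer cells with the gene from less RNA per cell, so the number of cells with at least 10 CPM is given beside it. A ratio is the difference of log2(CPM + 1) between the SMACre plate and 1 K5Cre plate, with a negative sign where SMACre was lower, and a fold is the same ratio without the logarithm. The pseudocount of 1 CPM makes the ratio of a low gene smaller. The plate is the unit of comparison and cells of 1 plate are not replicates, so the ratios have no test.

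The labelled identity was checked first on the keratins. Krt14 was at 3116 CPM on SMACre, 3589.5 CPM on K5Cre 1 and 3396 CPM on K5Cre 2. It reached 10 CPM in 54 of 60, 61 of 63 and 59 of 61 cells, so all 3 plates held Krt14 cells at close levels. Krt5, which encodes its partner keratin, was at 1249, 1040.5 and 391 CPM, with 53, 57 and 27 cells at 10 CPM or more. The median cell had 976 CPM of Krt5 on SMACre, 799 CPM on K5Cre 1 and 0.591 CPM on K5Cre 2. SMACre and K5Cre 1 were less than 2-fold apart in Krt5, while most cells of K5Cre 2 had little or none.

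The luminal keratin Krt8 was at 629 CPM on SMACre, 493 CPM on K5Cre 1 and 318 CPM on K5Cre 2, and reached 10 CPM in 55, 55 and 31 cells. Krt14 and Krt8 were both at 10 CPM or more in 49 of 60 SMACre cells (81.7%) and 53 of 63 cells of K5Cre 1 (84.1%). On K5Cre 2 they were in 29 of 61 cells (47.5%). Cells with Krt14 and without Krt5 numbered 3 on SMACre, 4 on K5Cre 1 and 32 on K5Cre 2. Krt79, a keratin of the upper hair follicle and sebaceous duct, was at 10 CPM or more without Krt5 in 2 cells on SMACre, 5 on K5Cre 1 and 29 on K5Cre 2. Keratins of both layers, as the gate's name implies, were thus found in most cells of SMACre and K5Cre 1, and in fewer cells of K5Cre 2.

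Acta2, the smooth muscle actin whose promoter drives SMACre, was at 127.8 CPM on SMACre, 347 CPM on K5Cre 1 and 225 CPM on K5Cre 2. The ratio was -1.43 against the first K5Cre plate and -0.81 against the second, so it was lower in SMACre but passed 2-fold on 1 plate only. Its top cell held much of the level on K5Cre 2, where 130 CPM was left without that cell. Among cells with at least 10 CPM of Krt5 (53, 57 and 27 cells) the ratio of Acta2 was -1.39 and -1.83, past 2-fold on both plates. The ratio in this subset was not computed without the top cell, so the second value may rest on that cell. Scd1, the desaturase that makes monounsaturated fatty acids, was at 281, 385 and 2946 CPM. It passed 1000 CPM in 2 SMACre cells, 3 cells of K5Cre 1 and 21 cells of K5Cre 2, so that the high level belonged to 1 K5Cre plate. The ratio of Scd1 was -0.45 and -3.38 in all cells and 0.44 and 0.08 in the cells with Krt5, so the high Scd1 of K5Cre 2 lay in cells with little or no Krt5.

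Vcan, which encodes the matrix proteoglycan versican, was higher in SMACre than on both K5Cre plates. Its level was 118.02 CPM on SMACre, 48.3 CPM on K5Cre 1 and 22.7 CPM on K5Cre 2, ratios of 1.27 and 2.33. Reads of Vcan were found in 37 of 60 SMACre cells (61.7%), 35 of 63 cells of K5Cre 1 (55.6%) and 15 of 61 cells of K5Cre 2 (24.6%). With each cell thinned to 100000 reads these shares were 48.3% (exact 95% interval 35.2 to 61.6), 41.3% (29.01 to 54.4) and 14.8% (6.98 to 26.2), where the interval covers counting of cells only. The intervals of SMACre and K5Cre 1 overlap widely, and in thinned cells the ratio of the level no longer passed 2-fold on both plates.

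**Figure D1:**
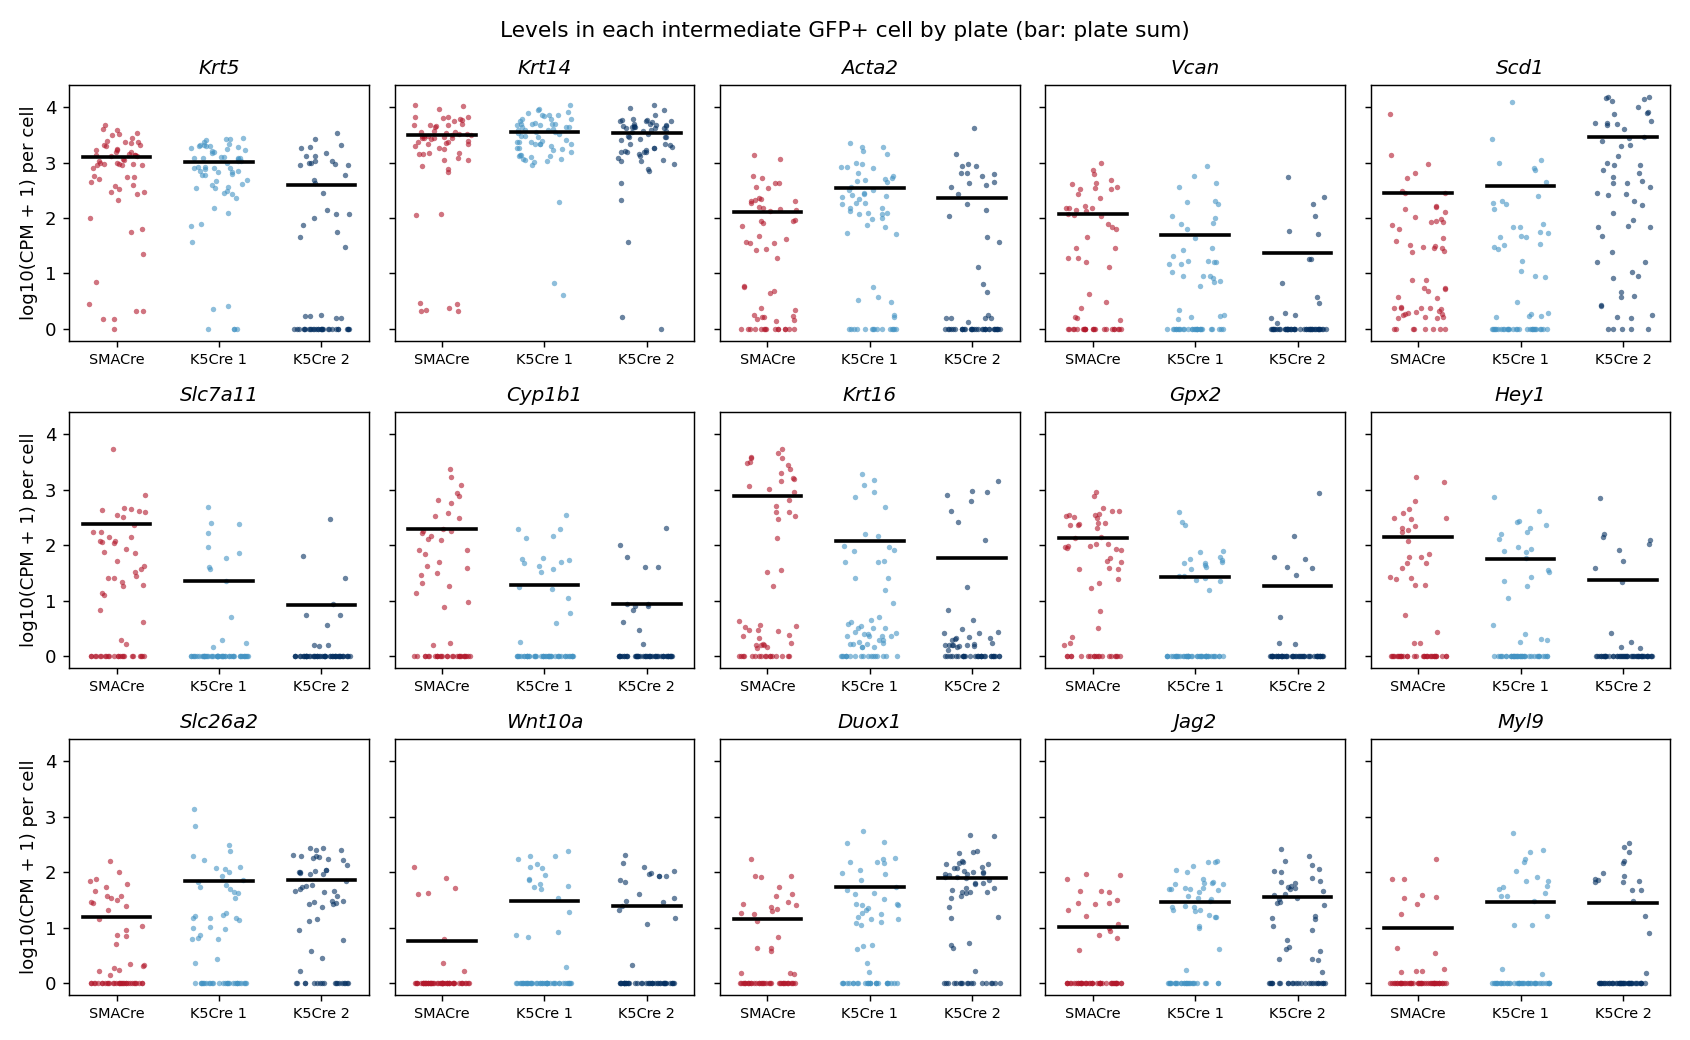
Level of 15 genes in each kept intermediate GFP+ cell, as log10(CPM + 1), by plate (SMACre, K5Cre 1, K5Cre 2); a point is 1 cell and the bar is the plate sum. Krt14 lies at the same height on the 3 plates, Krt5 is under 10 CPM in most cells of K5Cre 2, and Slc7a11 and Gpx2 have more cells above 0 on SMACre than on either K5Cre plate.

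Of 9379 genes at 10 CPM or more on at least 1 plate, 197 (2.10%) were at least 2-fold higher in SMACre than on both K5Cre plates and 311 (3.32%) were at least 2-fold lower. Scaling by TMM, which corrects for differences in RNA composition, turned this split to 270 higher and 223 lower. The median ratio of all genes was -0.17 and -0.07 against the K5Cre plates under CPM and -0.03 and 0.03 under TMM. Against K5Cre 1 alone 358 genes (3.82%) were higher and 677 (7.22%) lower, and against K5Cre 2 alone 1051 (11.2%) were higher and 1363 (14.5%) lower. The K5Cre plates themselves were 2-fold apart in 2185 genes (23.3%), which is more genes than lay apart between SMACre and K5Cre 1 and fewer than between SMACre and K5Cre 2. K5Cre 1 was higher in 1236 of them (13.2%) and K5Cre 2 in 949 (10.1%).

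edgeR's quasi-likelihood test on the plate sums had 1 residual degree of freedom, and the lone SMACre plate was assumed to vary like the K5Cre plates. It called 0 of 24454 genes (0.00%), with a smallest adjusted p of 1. At an unadjusted p under 0.05 there were 778 genes, 3.18% of those tested. DESeq2 on the same sums called 243 genes (0.994%), of which 92 were higher in SMACre. Of the 197 genes higher on both plates, DESeq2 called 41, and of the 311 lower genes 39. The genes below are therefore described by their values, and the words higher and lower refer to these 3 plates.

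**Figure D2:**
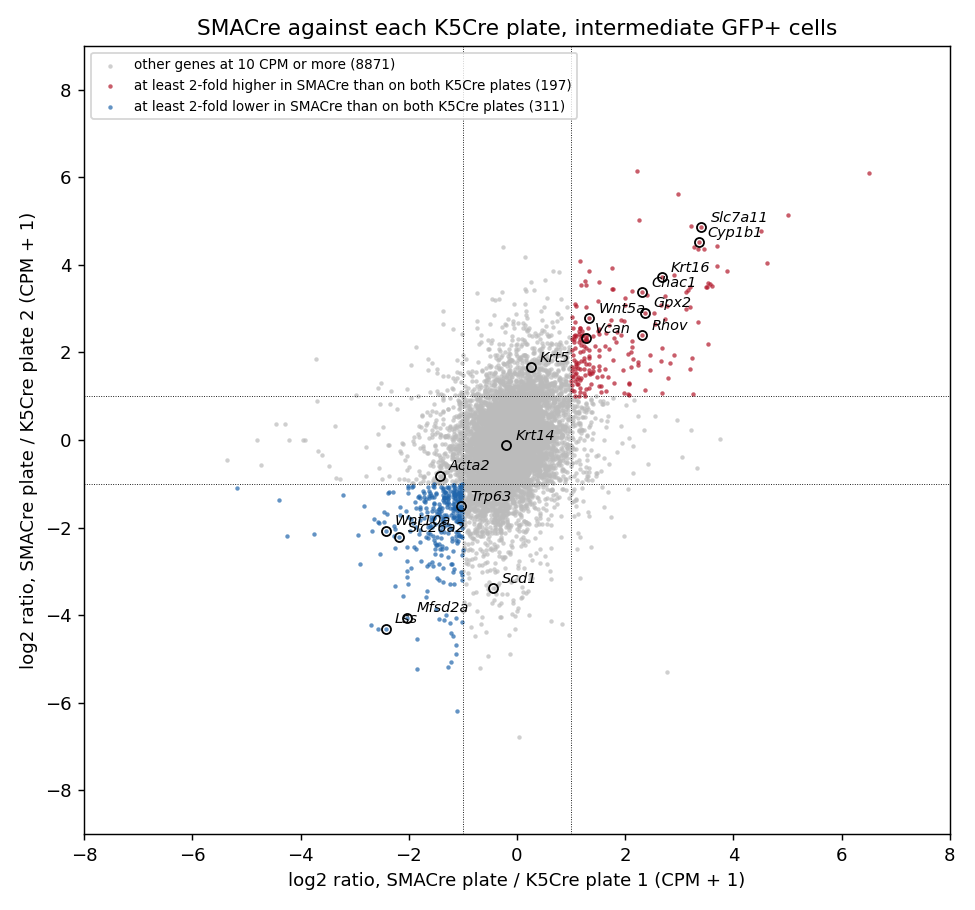
Ratio of SMACre to K5Cre 1 (x axis) and to K5Cre 2 (y axis), both as differences of log2(CPM + 1), for 9379 genes. The 197 genes higher in SMACre on both plates are red, the 311 lower ones blue and all others grey, and the spread along the y axis is wider than along the x axis.

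The leading genes are given in an order set after their values were seen, so neighbours in the text are not a tested group. Among the higher genes, Slc7a11 (chr3:49892526-50443614, GRCm38, minus strand) encodes the cystine importer xCT, which supplies cysteine for glutathione. It was at 240.4 CPM on SMACre, 21.7 CPM on K5Cre 1 and 7.28 CPM on K5Cre 2. This is 10.6-fold and 29.1-fold higher, and 33 of 60 SMACre cells reached 10 CPM against 10 of 63 and 3 of 61. Single SMACre cells ranged from 0 to 5439 CPM with a median of 17.9 CPM, and the median was 0 on both K5Cre plates. The highest SMACre cell gave a large part of that sum, and 96.0, 15.9 and 1.54 CPM were left without the top cell of each plate.

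Chac1 (chr2:119351229-119354381, plus strand) encodes an enzyme that breaks down glutathione. It was at 93.5 CPM on SMACre, 17.9 CPM on K5Cre 1 and 8.14 CPM on K5Cre 2, and reached 10 CPM in 28, 13 and 5 cells. Pck2 (chr14:55540266-55551242, plus strand) encodes the mitochondrial form of phosphoenolpyruvate carboxykinase, and was at 61.02, 9.75 and 7.31 CPM, with 30, 10 and 7 cells at that level. Without the top cell of each plate Pck2 was still at 53.1 CPM on SMACre against 7.34 and 3.41 CPM. In both genes the number of SMACre cells was above that of either K5Cre plate.

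Slc7a11, Chac1 and Pck2 are known targets of ATF4, the transcription factor of the amino acid response, which binds an element of the form TGATGNAA. The promoter windows of these genes, from 250 bases before to 50 after the start in RefSeq (GRCm38.p6), are printed because all 3 hold this element, shown in capitals on either strand. In Chac1 the window is chr2:119350992-119351291 on the plus strand, in Slc7a11 chr3:50443564-50443863 on the minus strand and in Pck2 chr14:55540016-55540315 on the plus strand.
Chac1: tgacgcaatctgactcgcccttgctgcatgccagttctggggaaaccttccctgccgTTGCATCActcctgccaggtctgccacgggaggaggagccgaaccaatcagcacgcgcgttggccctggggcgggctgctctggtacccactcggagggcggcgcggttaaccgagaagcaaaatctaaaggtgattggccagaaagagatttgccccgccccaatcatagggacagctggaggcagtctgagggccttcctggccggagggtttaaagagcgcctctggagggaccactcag
Slc7a11: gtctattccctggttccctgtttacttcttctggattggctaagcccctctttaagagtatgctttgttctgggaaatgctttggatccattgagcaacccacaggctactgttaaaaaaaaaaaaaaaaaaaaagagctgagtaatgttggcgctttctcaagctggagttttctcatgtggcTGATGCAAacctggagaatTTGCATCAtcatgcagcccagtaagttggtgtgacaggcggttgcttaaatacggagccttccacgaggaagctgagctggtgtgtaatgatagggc
Pck2: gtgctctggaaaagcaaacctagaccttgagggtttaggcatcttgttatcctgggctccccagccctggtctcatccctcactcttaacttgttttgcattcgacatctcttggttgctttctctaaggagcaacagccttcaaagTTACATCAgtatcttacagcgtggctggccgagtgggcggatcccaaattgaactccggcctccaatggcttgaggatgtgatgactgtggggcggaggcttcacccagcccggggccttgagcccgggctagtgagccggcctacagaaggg
The element starts 193 bases before the start of Chac1, 66 and 47 bases before that of Slc7a11, which has 2 matches, and Pck2 has 1 match. TGATGNAA was in 1304 of 32851 windows of all genes (3.97%). Of the named genes with a window it was in 4 of the 17 that were higher, the fourth being Wfdc18, and in 1 of the 17 that were lower, Duox1. The antioxidant response letters TGACNNNGC, in 12.4% of all windows, were in 3 of the 17 higher and 1 of the 17 lower genes. The xenobiotic response core GCGTG, in 32.4%, was in 7, Cyp1b1 among them, and 9. The sterol regulatory letters TCACNCCAC, in 1.24%, were in none. All 4 motifs, read on both strands, were chosen after the values had been seen. A match is a description of the letters, not a bound site. Phgdh, an enzyme of serine synthesis and also a known target of ATF4, went the other way. It was lower, at 31.9 CPM on SMACre against 102.94 CPM on K5Cre 1 and 102.01 CPM on K5Cre 2. Targets of ATF4 were not read as a list, so a shared direction among them was not tested.

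Gpx2, Gsta4 and Cyp1b1 encode enzymes of detoxification. Gpx2, a glutathione peroxidase, was at 134.9 CPM on SMACre, 25.5 CPM on K5Cre 1 and 17.1 CPM on K5Cre 2, and reached 10 CPM in 36, 20 and 7 cells. Gsta4, a glutathione transferase that clears products of lipid peroxidation, was at 43.3, 9.09 and 3.16 CPM. Cyp1b1, a cytochrome P450 of the aryl hydrocarbon response, was at 199 CPM on SMACre, 18.4 CPM on K5Cre 1 and 7.71 CPM on K5Cre 2. Its folds of 10.3 and 22.9 came with 28, 16 and 5 cells at 10 CPM or more, so more SMACre cells carried it than on either K5Cre plate.

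Krt16, a keratin made by activated keratinocytes, was at 760.3 CPM on SMACre, 117.7 CPM on K5Cre 1 and 56.9 CPM on K5Cre 2, ratios of 2.68 and 3.72. Its reads were in 43 of 60 SMACre cells and 45 of 63 cells of K5Cre 1, while 26, 18 and 9 cells of the plates reached 10 CPM. Reads of Krt16 were thus as common on K5Cre 1, and it was the level in the high cells, up to 5349 CPM on SMACre and 1918 CPM on K5Cre 1, that stood apart. Rhov, a small GTPase, was at 81.6, 15.5 and 14.8 CPM, with 26, 13 and 9 cells at 10 CPM or more. Lmo7, an adaptor at adherens junctions, was at 99.2, 21.8 and 21.9 CPM. It was at 10 CPM or more in 19, 18 and 9 cells and the highest SMACre cell had 2105 CPM. Among cells with Krt5 it no longer passed 2-fold on both plates. Fbxl7, the substrate-binding part of a ubiquitin ligase, was at 20.2, 2.32 and 1.48 CPM and came from 15, 6 and 3 cells.

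The remaining 2 of the 12 leading higher genes, Tpm3-rs7 and Hmga1b, are copies of Tpm3 and Hmga1 elsewhere in the genome. Tpm3-rs7 was at 48.9 CPM on SMACre, 2.85 CPM on K5Cre 1 and 1.31 CPM on K5Cre 2, and reached 10 CPM in 52, 5 and 1 cells. Hmga1b was at 43.2, 3.60 and 1.08 CPM, with 48, 6 and 0 cells. They reached 10 CPM in more SMACre cells than any other of the 12, and are taken up again with the GFP- cells.

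Among the lower genes, Wnt10a encodes a secreted Wnt ligand of the basal layer and of skin appendages. It was at 4.78 CPM on SMACre, 29.97 CPM on K5Cre 1 and 23.3 CPM on K5Cre 2, and reached 10 CPM in 5, 16 and 19 cells. This is 5.36-fold and 4.21-fold lower. Slc26a2 encodes the sulfate transporter that feeds the sulfation of proteoglycans, and was at 14.5, 69.4 and 71.4 CPM in 16, 26 and 38 cells. The K5Cre plates were close to each other in both genes and the SMACre plate lay below them. Without its top cell K5Cre 1 kept 45.5 CPM of Slc26a2.

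Duox1, an NADPH oxidase that makes hydrogen peroxide at the epithelial surface, was at 13.4 CPM on SMACre, 52.9 CPM on K5Cre 1 and 77.7 CPM on K5Cre 2. It was at 10 CPM or more in 16, 31 and 39 cells, and the median cell had 0, 3.95 and 44.1 CPM. Dusp22, a phosphatase that acts on JNK signalling, was at 7.63, 29.6 and 37.4 CPM in 11, 25 and 32 cells. For both genes each K5Cre plate had more cells at this level than SMACre.

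Of the other leading lower genes, Mfsd2a, a transporter of lysophospholipids, was at 8.44 CPM on SMACre, 37.7 CPM on K5Cre 1 and 16.7-fold higher on K5Cre 2 than on SMACre. Pcx, the mitochondrial pyruvate carboxylase, was at 15.8, 57.5 and 83.7 CPM in 12, 22 and 36 cells. Sptlc3, a subunit of the enzyme that opens sphingolipid synthesis, was at 3.65, 21.6 and 17.1 CPM. Pnpla7, a lysophospholipase, was at 2.91, 17.9 and 16.9 CPM in 4, 12 and 15 cells. All 4 were lower than on both K5Cre plates when every kept cell was used. When the 25% of cells highest in lipid synthesis genes were left out, which kept 55, 54 and 29 cells, Mfsd2a, Pcx and Pnpla7 no longer passed on both plates, and Sptlc3 did. Among cells with Krt5, Mfsd2a and Pnpla7 did not pass. Other lower genes of the leading 12 were Cyp4f17, a cytochrome P450 at 2.38, 12.7 and 10.4 CPM that did not pass among cells with Krt5 either, Zkscan5, a zinc finger protein at 3.58, 20.9 and 17.5 CPM, and Alpk1, a kinase that senses bacterial sugars, at 4.44, 20.5 and 21.8 CPM.

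The genes were also read by lists of known function, beside the 2.10% higher and 3.32% lower of all genes. A member was measured where it reached 10 CPM on at least 1 plate. This held for 11 of 12 basal, 12 of 15 smooth muscle, 22 of 22 matrix, 17 of 18 luminal, 7 of 10 hormone receptor, 26 of 28 lipid, 16 of 20 Wnt, 13 of 19 cell cycle, 16 of 16 stress, 8 of 14 interferon and 5 of 10 milk genes. The Notch list has 18 members, of which 11 were at 10 CPM or more, 1 was higher and 1 lower. Hey1, a direct Notch target, was higher at 140.04 CPM on SMACre, 55.8 CPM on K5Cre 1 and 23.03 CPM on K5Cre 2, and 24, 20 and 9 cells reached 10 CPM. Jag2, a Notch ligand, was lower at 9.23, 28.7 and 34.3 CPM in 13, 32 and 26 cells. Notch1, whose reads may come from the transgene or the endogenous gene, was at 316, 390.5 and 165 CPM, and Hes1 at 101.97, 54.6 and 46.2 CPM. The ligand Jag1 was at 269, 267 and 131.2 CPM, so SMACre lay with K5Cre 1 in the receptor and in Jag1. Without the cells that carry markers of other cell types, Hey1 was no longer 2-fold higher on both plates.

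Of the basal list 1 of 11 measured members was lower and none was higher. This was Trp63, which encodes p63, at 140.3 CPM on SMACre, 287 CPM on K5Cre 1 and 402 CPM on K5Cre 2, with 37, 52 and 53 cells at 10 CPM or more. Its ratios were -1.03 and -1.51, and it did not pass on both plates under TMM, by the mean of the cells' CPM or in cells with Krt5. Of 12 measured genes of the smooth muscle list 3 were lower and none higher: Cnn1, the actin-binding calponin, Myl9, a myosin light chain, and Oxtr, the oxytocin receptor of milk ejection. Cnn1 was at 13.7, 34.9 and 38.3 CPM, Myl9 at 8.74, 27.7 and 27.4 CPM, and Oxtr at 24.7, 67.3 and 53.4 CPM. The list's median ratio was -0.65 against K5Cre 1 and 0.36 against K5Cre 2, so the list as a whole had no single direction. Among cells with Krt5, as for Acta2, the 3 genes lay further below K5Cre 2, with ratios of -1.24 and -2.34 for Cnn1, -1.45 and -2.39 for Myl9 and -1.30 and -1.80 for Oxtr. None of the 3 passed on both plates without the cells that carry markers of other cell types. Cnn1 and Oxtr did not pass in thinned cells, nor did Oxtr under TMM.

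The Wnt list had 2 higher and 1 lower of 16 measured members, with Wnt10a the lower one. Wnt5a, a ligand of the noncanonical pathway, was at 95.2 CPM on SMACre, 36.9 CPM on K5Cre 1 and 13.04 CPM on K5Cre 2 in 30, 22 and 10 cells. Procr, a receptor that marks a subset of basal cells, was at 20.6, 5.29 and 0.972 CPM in 14, 3 and 1 cells. Both Wnt5a and Procr were higher in SMACre, and on K5Cre 2 all reads of Procr lay in 1 cell. Of 22 matrix genes Vcan and Tnc were higher and Sparcl1 lower. Tnc, tenascin C, at 19.5, 3.64 and 4.65 CPM, came from 4, 1 and 2 cells and was under 10 CPM on every plate without the top cell, and Sparcl1, at 3.36, 16.9 and 22.5 CPM, came from 2, 7 and 5 cells.

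The hormone receptor list had 2 of 7 measured members higher. Areg, the growth factor that relays estrogen in the gland, was at 119.5 CPM on SMACre, 27.1 CPM on K5Cre 1 and 36.7 CPM on K5Cre 2 in 31, 20 and 8 cells. Cited1, a cofactor of luminal cells, was at 60.9, 17.6 and 8.29 CPM, but in 5, 6 and 3 cells, and in cells with Krt5 it turned lower than on K5Cre 2. Of 5 measured milk genes Csn3 and Wfdc18 were higher, Csn3 at 89.6, 20.6 and 43.4 CPM and Wfdc18 at 52.3, 6.12 and 12.8 CPM. Neither milk gene passed without the 25% of cells highest in lipid genes, and Csn3 did not pass in thinned cells, by the mean of the cells' CPM or without the cells that carry markers of other cell types. Of 13 measured cell cycle genes Cdk1, at 20.7, 7.55 and 4.24 CPM in 11, 6 and 3 cells, and Tacc3, at 19.1, 6.96 and 4.50 CPM, were higher, and none was lower. Tacc3 no longer passed without those lipid-high cells or among cells with Krt5.

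The lipid list had 5 lower and 1 higher of 26 measured members, and its median ratio was -0.45 against K5Cre 1 and -1.51 against K5Cre 2. Of the 26, 15 were at least 2-fold lower than on K5Cre 2 and 5 than on K5Cre 1. Lss, the synthase that closes the sterol ring, was at 7.37 CPM on SMACre, 44.1 CPM on K5Cre 1 and 165 CPM on K5Cre 2, but 10.2 CPM was left on K5Cre 1 without its top cell. Insig1, a sterol sensor, was at 8.29, 28.3 and 42.7 CPM, Elovl5, which lengthens unsaturated fatty acids, at 18.8, 44.1 and 61.96 CPM, and Srebf1, a master factor of lipid synthesis, at 62.3, 127.6 and 387 CPM. Lss, Insig1, Elovl5 and Srebf1 no longer passed 2-fold on both plates at 10 CPM without the top cell of each plate, without those lipid-high cells and among cells with Krt5. The lipid-high cells were picked by the sum of this list, which holds these genes. Their loss without those cells was thus built into the choice and is no separate check. The higher member was Elovl6, at 16.99, 7.86 and 5.49 CPM.

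Of 17 measured luminal genes 1 was lower and none higher. This was Cd14, at 6.67 CPM on SMACre, 70.7 CPM on K5Cre 1 and 17.3 CPM on K5Cre 2, where 1 cell of K5Cre 1 reached 3168 CPM and 4.06 CPM was left without it. Of 16 stress genes Hspa1a, at 61.9, 168 and 209 CPM, and Hspa1b, at 185, 463 and 429 CPM, were lower. They encode nearly identical heat shock proteins of 1 locus, so reads may be split between them, and Hspa1b did not pass in thinned cells. None of 8 measured interferon and antigen presentation genes passed in either direction.

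The median ratio of a list against K5Cre 1 and K5Cre 2 can be read beside -0.17 and -0.07 of all genes. It was -0.36 and 0.46 for the basal, -0.36 and 0.71 for the matrix and -0.47 and 0.65 for the Wnt list, which lay on opposite sides of 0 on the K5Cre plates. The cell cycle list, at 0.66 and 0.83, the Notch list, at 0.17 and 0.73, and the hormone receptor list, at 0.24 and 0.58, lay above 0 on both, as did the luminal list at 0.20 and 0.14 and the interferon list at 0.11 and 0.39. The milk list was at -0.04 and 0.32, and the stress list, at -0.37 and -0.82, lay below 0 on both. These ratios are of plate sums. The median cell of SMACre, K5Cre 1 and K5Cre 2 had 125.3, 149.65 and 124.88 CPM of cell cycle genes in sum. It had 149.56, 155.2 and 126.74 CPM of hormone receptor genes and 1158.1, 1059.4 and 428.46 CPM of Notch genes.

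**Figure D3:**
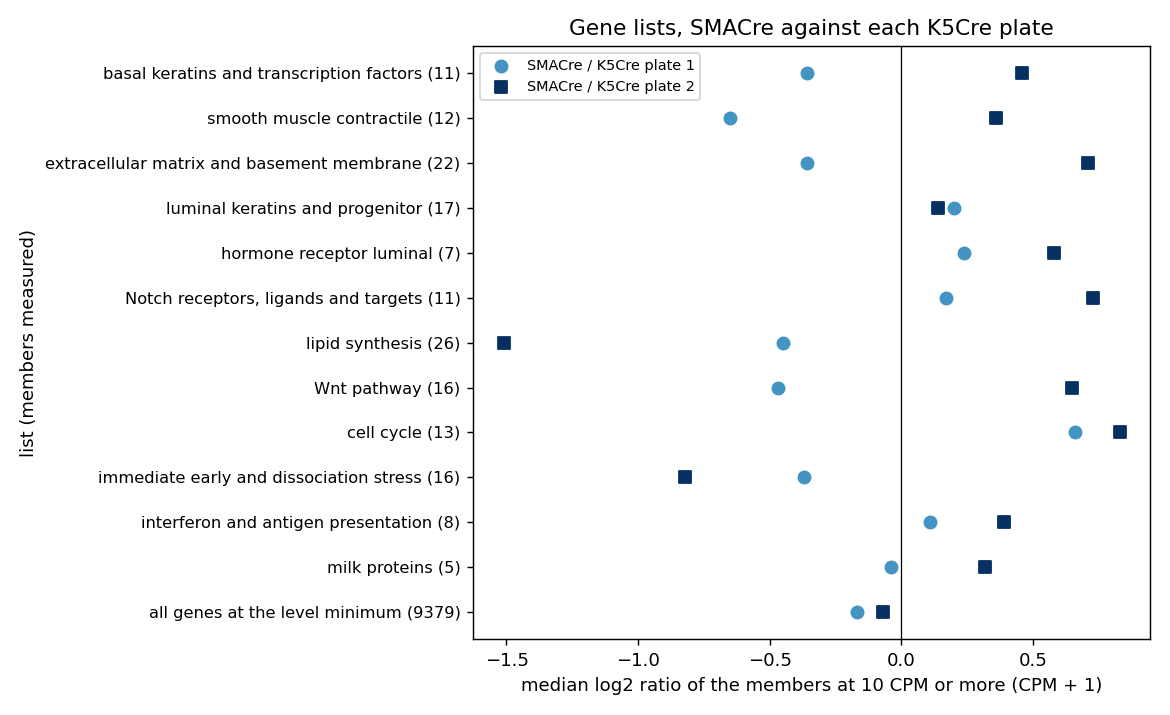
Median ratio of each gene list, as a difference of log2(CPM + 1), for SMACre against K5Cre 1 and against K5Cre 2. The lipid list lies lowest against K5Cre 2 at -1.51, and the basal, smooth muscle, matrix and Wnt lists lie below 0 against K5Cre 1 and above 0 against K5Cre 2.

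GFP- cells of the same plates, from the luminal and basal gates, were read to see how far the same genes differed between plates in cells without the reporter. There were 5, 6 and 6 luminal and 6, 6 and 5 basal GFP- cells on SMACre, K5Cre 1 and K5Cre 2. With so few cells, 1034 of 9913 genes (10.4%) were 2-fold higher and 1660 (16.7%) lower in SMACre on both plates in the luminal gate. In the basal gate these were 1211 (11.6%) and 1214 (11.6%) of 10466 genes. Of the genes higher in intermediate cells and measured in the gate, 24.6% were also higher in luminal and 37.6% in basal GFP- cells, and of the lower genes 27.4% and 30.3% were also lower. In both GFP- gates at once 12 of the higher genes were higher (11.9%), against 1.57% of 8430 genes measured there, and these 12 are 9.09% of all genes higher in both. Of the lower genes 19 of 190 (10.0%) were lower in both GFP- gates, against 194 of 8430 (2.30%), and the 19 are 9.79% of the 194. Pcx, of the leading lower genes, and Phgdh were among the 19. Pcx was at 0.469 CPM in luminal GFP- cells of SMACre against 9.84 and 21.97 CPM on the K5Cre plates. In basal GFP- cells it was at 4.17 against 29.9 and 171.9 CPM. Some of the differences between the plates were thus found in cells without GFP too.

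Tpm3-rs7 and Hmga1b were among these 12 genes, with Procr, Cgref1, Ptgs2, Pde4dip and 6 pseudogenes. Tpm3-rs7 was at 52.2 CPM in luminal GFP- cells of SMACre against 3.51 and 4.18 CPM on the K5Cre plates, and at 28.8 against 4.48 and 2.54 CPM in basal GFP- cells. Hmga1b was at 32.7 against 0.562 and 2.36 CPM in luminal and at 35.6 against 0.396 and 2.75 CPM in basal GFP- cells. SMACre thus lay above both K5Cre plates in these copies in cells without GFP as well as in intermediate GFP+ cells. In the intermediate cells their parents ran the other way or level, Tpm3 at 48.4, 149.4 and 72.7 CPM and Hmga1 at 30.8, 79.1 and 32.6 CPM. The same held for 2 ribosomal genes chosen after their values were seen. The pseudogene Rpl34-ps1 was at 28.7, 5.31 and 7.66 CPM where Rpl34 was at 86.5, 238 and 274 CPM, and Rpsa-ps10 was at 124.7, 4.13 and 6.60 CPM where Rpsa was at 412, 459 and 532 CPM. Reads of near-identical copies can be divided between them by alignment, and the part of this in the values was not tested.

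Slc7a11 and Chac1 did not share this pattern. Slc7a11 was at 5.31 CPM in luminal GFP- cells of SMACre against 10.1 and 0.107 CPM, and at 27.5 CPM in basal GFP- cells against 33.1 and 7.71 CPM. Chac1 was at 50.5 against 48.6 and 24.8 CPM in luminal and at 25.5 against 6.73 and 1.16 CPM in basal GFP- cells. In neither gene did SMACre stand apart from both K5Cre plates in both gates. Krt16 was at 8.91 CPM in luminal GFP- cells of SMACre and at 135.3 CPM in its basal ones, with 0.141 to 1.45 CPM in the GFP- cells of K5Cre. Wnt10a had 0 CPM in the luminal GFP- cells of all plates, and its basal GFP- levels were 50.2, 0 and 189 CPM. Jag2 was at 98.6, 125.6 and 151.8 CPM and Trp63 at 160.6, 457 and 664 CPM in basal GFP- cells, so Trp63 was lower in SMACre there too.

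**Figure D4:**
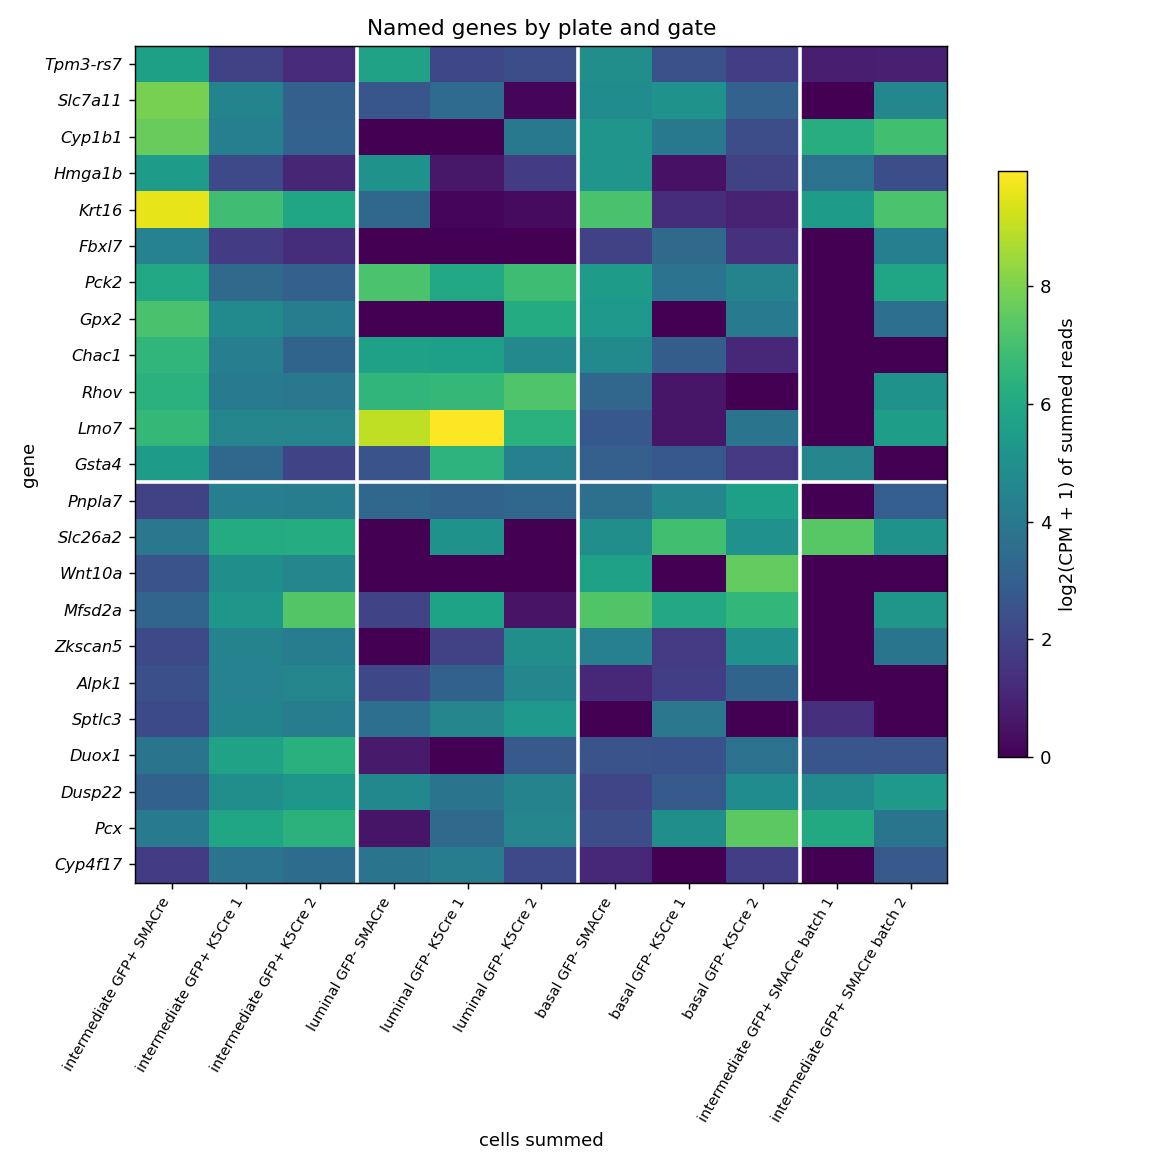
Level of leading genes as log2(CPM + 1), for intermediate GFP+, luminal GFP- and basal GFP- cells of the 3 plates and for SMACre intermediate GFP+ cells of batches 1 and 2. Tpm3-rs7 and Hmga1b are high in all gates of the SMACre plate, and Slc7a11 is high in its intermediate GFP+ cells.

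SMACre intermediate GFP+ cells chased for 3 weeks were also read in the single-end batches 1 and 2, from other plates, with 3 of 34 and 13 of 30 cells kept. There Cre line and batch cannot be told apart. Of the genes higher in SMACre, 38 of 189 (20.1%) lay above both K5Cre plates in both batches, close to the 18.5% of all genes. Of 309 lower genes 47.9% lay below both K5Cre plates in both batches, against 26.1% of all genes. Both sets were chosen by the same K5Cre values that the batches were set against. A larger share of lower genes below those values can follow from that choice alone, so these shares cannot show whether the differences recur. Cyp1b1, at 72.4 and 121.8 CPM, was above both K5Cre plates in each batch. Slc7a11, at 0 and 23.2 CPM, and Krt16, at 44.7 and 140.6 CPM, were below both in batch 1 and above both in batch 2. In batch 2 Slc7a11 was close to the 21.7 CPM of K5Cre 1. Chac1 had 0 CPM in both. Gpx2, at 0 and 11.3 CPM, was below both K5Cre plates in each batch. Vcan, at 43.9 and 42.8 CPM, lay between the K5Cre plates in each batch. Tpm3-rs7 was at 0.770 and 0.846 CPM, below both K5Cre plates, while Hmga1b, at 12.3 and 4.23 CPM, was above both in each batch. Wnt10a was at 0 in both batches and Duox1 at 5.39 and 5.24 CPM, below the K5Cre plates as in this batch. Other lower genes lay the other way. Jag2 at 81.6 and 101.8 CPM, Cnn1 at 283 and 86.6 CPM and Oxtr at 737.7 and 297 CPM were above both K5Cre plates in each batch. Slc26a2, at 165 and 33.2 CPM, was above both in batch 1 and below both in batch 2.

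Markers of other cell types were low but not equal. The stroma markers summed to 10.4 CPM on SMACre, 47.3 CPM on K5Cre 1 and 22.2 CPM on K5Cre 2, with a median of 0 per cell on every plate. Of its 6 markers 2, 4 and 5 were at 1 CPM or more, and Lum was at 0 on both K5Cre plates. The immune markers summed to 77.1, 53.9 and 2.98 CPM, mostly Cd74 on SMACre at 58.6 CPM and Lyz2 on K5Cre 1 at 43.2 CPM, and 4, 3 and 1 of 6 were at 1 CPM or more. The highest single cell had 2476, 2357 and 42.3 CPM of them and the median cell 0, so these reads lay in few cells. The endothelium and pericyte markers summed to 11.4, 9.97 and 4.57 CPM with Cdh5 at 0 on both K5Cre plates, the fat cell markers to 3.19, 0.914 and 10.4 CPM with Lep at 0 on all plates, and the salivary gland markers to 1.78, 2.36 and 2.85 CPM. Leaving out cells with 100 CPM or more of stroma, immune, endothelium and pericyte markers, a choice made after seeing the data, left 216 higher and 316 lower genes.

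Markers of the sebaceous gland summed to 69.04 CPM on SMACre, 140.5 CPM on K5Cre 1 and 739.7 CPM on K5Cre 2. The median cell had 22.4, 19.8 and 212 CPM, and 4, 7 and 7 of 8 markers were at 1 CPM or more, with Awat1 at 0 on SMACre and K5Cre 1. Awat2, an enzyme of wax synthesis, was at 7.25, 46.8 and 48.7 CPM, and Pparg, the nuclear receptor of fat and sebaceous cells, at 1.77, 5.99 and 46.4 CPM. The sebaceous markers moved with the lipid list on K5Cre 2, but Elovl3 and Scd3 are on both lists, so the lists are not independent. The part of sebaceous markers in the lower lipid genes of SMACre was not tested. Markers of the upper hair follicle and epidermis summed to 1963, 1504 and 1542 CPM, of which Krt79 gave 358, 489 and 744 CPM. Krt16, a leading higher gene, is on this list too and gave 760.3, 117.7 and 56.9 CPM. The higher sum on SMACre thus rested on Krt16. Ivl, a protein of the cornified envelope, was at 9.50, 49.1 and 56.8 CPM. The list had no single direction. The log2 difference of SMACre from the K5Cre plates in edgeR was -2.36 for Ivl, -1.36 for Krt10, -1.26 for Krt1 and -0.46 for Lor. It was 1.03 for Krtdap and 0.57 for Sbsn. Cdsn, which is not on this list, was higher in SMACre, at 136.85, 0.519 and 0.992 CPM. How far skin cells entered the gate was not tested, and all 3 plates held these markers.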

How the data were processed

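The authors sequenced index-sorted single cells by Smart-seq2 (paired-end 50 bases in this batch), trimmed reads with Trim Galore 0.6.5, aligned them to GRCm38/mm10 with STAR 2.7.7a and deposited HTSeq 0.13.5 counts per gene. Strand use in counting is not given in the sources used here, so overlapping genes cannot be told apart. Doublets were left out in the sort, with no caller run here, and no well index was shared. Plate and gate came from the deposited annotation of wells.

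Counts of kept cells were summed by plate. Genes needed 10 CPM on 1 plate and a 2-fold ratio on both K5Cre plates. Sums were tested with edgeR 4.0.16 (TMM, quasi-likelihood, Benjamini-Hochberg) and DESeq2 1.42.0 in R 4.3.3, and the scripts were tested on simulated data. Cells were thinned in numpy 2.4.6 and intervals are Clopper-Pearson from scipy 1.17.1. Named genes were the markers Krt5, Krt14, Acta2, Vcan and Scd1, the 12 leading genes in each direction (those holding without the top cell, with a read in 25% of cells of the higher side, with pseudogenes and unnamed models counted only) and up to 4 members of each list. Krt8, Krt18, Notch1, Hes1, Jag1, Elovl6, Cdsn, genes shared with GFP- cells and single markers of other cell types were added after their values were seen. The members and lists were chosen with earlier results of these data known. Gene positions are from the GRCm38 annotation and the promoter windows from RefSeq, which held one for 37 of 52 named genes. Some genes that met these rules are not reported here. Pseudocount, level, fold, scaling, cell filters, thinning, leaving out cells or a K5Cre plate and the test were varied.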

Additional observations from a re-analysis of the deposited data

How the results depend on the processing

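The share of genes higher and lower in SMACre on both plates, 2.10% and 3.32%, became 1.39% and 1.20% with a pseudocount of 5 CPM, 1.56% and 2.50% with a minimum of 25 CPM (100 and 160 genes), 3.97% and 3.47% with a minimum of 1 CPM (654 and 571 genes), and 0.480% and 0.235% at 4-fold (45 and 22 genes). Against 1 K5Cre plate at a time the higher genes ranged from 3.67% to 11.1% and the lower genes from 7.11% to 14.9%, the larger shares being those without K5Cre 1. Under the other settings they stayed within 1.97% to 2.88% and 2.38% to 4.06%. Leaving out the 25% of cells highest in lipid genes gave 380 lower genes, of which 167 were among the 311. edgeR's 0 calls became 3 in thinned cells (Cdsn, Rpsa-ps10 and Gm13394), 6 with no filter on low counts and 243 with DESeq2. Cd14 turned higher than on K5Cre 1 without the top cell (0.31), in cells with Krt5 (0.21) and without cells of other types (0.28), and higher than on K5Cre 2 in cells with Krt5 (0.49). Against K5Cre 2, Pnpla7 turned to 0.46 without the lipid-high cells and 0.18 in cells with Krt5, Csn3 to -0.15 without the lipid-high cells and Cited1 to -0.58 in cells with Krt5. The cause was not tested. No paired analysis was possible because there is 1 SMACre plate. Each kept cell had over 100000 counts, and the comparison rests on 1 SMACre and 2 K5Cre plates.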
